A study of Mus musculus with 8 samples.

Results

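The genes described here are the MHC class II genes and genes of the Langerhans cell, the resident antigen-presenting cell of the epidermis, in newborn mouse back-skin epidermis with and without EED. They were the 10 genes H2-Ab1, H2-Aa, H2-Eb1, Cd74, H2-DMa, H2-DMb1, Ciita, Cd207, Cd86 and Csf1r, found on the array as 13 probes whose RefSeq accessions map to these symbols, out of 21154 genes with a symbol and 36799 targets in all. They were chosen with their EED cKO against control values known, so their differences between genotypes are given as a description with no test. Of the 10, 9 passed the filter on dim probes, set at signal well above background on 3 or more arrays of either genotype, and Cd207 did not.

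RNA from the epidermis of newborn (P0) C57BL/6 mice was hybridised on 8 arrays, 4 from EED cKO animals and 4 from animals labelled control, each together with Universal Mouse Reference RNA as a common reference. In the EED cKO the floxed Eed alleles are deleted by Cre under the Krt14 promoter, which is active in epidermal keratinocytes, whereas Langerhans cells descend from haematopoietic progenitors. EED is a core subunit of the Polycomb repressive complex that methylates histone H3 on repressed genes. The alleles of the controls were given only as control, the samples were labelled biological replicates, and whether each was 1 animal was not given. Epidermal RNA was labelled with Cy3 for replicates 1 and 3 and with Cy5 for replicates 2 and 4, in EED cKO and control alike. Values below are log2 ratios of epidermis over reference after background correction and loess normalisation, so a value of 1 is a 2-fold higher signal than in the reference, and levels of different genes cannot be compared from them.

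MHC class II molecules are pairs of an alpha and a beta chain that carry peptides from endocytosed proteins to the cell surface for recognition by CD4+ T cells. The invariant chain Cd74 guards the peptide groove during transport, H2-DM exchanges the last invariant chain fragment for a peptide, and the transactivator Ciita is recruited to the X and Y boxes of class II promoters by the RFX and NF-Y factors. Langerhans cell precursors seed the epidermis before birth, depend on the receptor Csf1r and its keratinocyte-derived ligand Il34, and acquire MHC class II and then langerin, the product of Cd207, around and after birth.

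The promoters of 3 class II members are printed to show the boxes through which the class II factors act. RefSeq promoter windows of 300 bases (GRCm38.p6, 250 bases before the annotated start) were matched for 5 of the 10 members. In 3 of them, H2-Aa, H2-Eb1 and H2-DMb1, the letters GNAACT at the start of the X box were followed on the gene's strand by the Y box TGATTGG, 30 or 31 bases from start to start. The stretches are given from 5′ to 3′ on the gene's strand with these letters in capitals, and lie at chr17:34287857-34287914 (minus strand), chr17:34305766-34305822 (plus strand) and chr17:34153087-34153144 (plus strand) respectively.
H2-Aa: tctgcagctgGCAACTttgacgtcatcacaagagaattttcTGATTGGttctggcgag
H2-Eb1: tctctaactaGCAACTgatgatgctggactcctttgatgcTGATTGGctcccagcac
H2-DMb1: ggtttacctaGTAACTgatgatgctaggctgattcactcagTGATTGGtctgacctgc
TGATTGG, which contains the letters CCAAT on its other strand, was present on either strand in 7.82% of 32851 windows, and GNAACT on either strand in 42.8%. GNAACT followed by TGATTGG within 40 bases, start to start, was present in 40 windows, or 0.122%, and 1 of these belonged to H2-Eb2, which is no member. The letters were chosen from the 3 sequences shown. They did not occur in this order in the windows of H2-DMa and Cd207. A match describes the letters in the window and is not evidence of binding.

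Eed itself had log2 ratios of -1.66 to -2.04 on the EED cKO arrays and -0.18 to -0.46 on the control arrays, with no overlap. The arrays shared 1 slide, with EED cKO and control in separate rows, so slide position and genotype cannot be told apart. Control replicates 2 and 3 were the only arrays with abundant Y-linked transcripts. Over all 23238 targets tested with limma, 1.1% were at least 2-fold higher in EED cKO at an adjusted p under 0.05, the median log2 fold change was 0.02, and on 17.1% the arrays of the 2 genotypes did not overlap.

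Of the class II chains, H2-Ab1 and H2-Eb1 had the largest differences among the members, though with the scanner software's ratio H2-Aa (1.60) exceeded H2-Ab1 (1.48) and H2-Eb1 (1.35). H2-Ab1 encodes the beta chain of I-A. Its log2 ratio was 2.76, 2.53, 2.92 and 2.96 on EED cKO replicates 1 to 4 and 0.32, 1.25, 0.93 and 2.45 on control replicates 1 to 4. Every EED cKO array exceeded every control array, but control replicate 4 lay close to the lowest of them and far above the other controls. The log2 fold change was 1.56 ± 0.32 (SE, n = 4 and 4), which is 2.94-fold with a 95% interval of 1.79 to 4.82. A second H2-Ab1 probe gave 1.47 ± 0.29. Among the controls the ratio spanned 4.38-fold, among the EED cKO arrays 1.35-fold.

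The signal of H2-Ab1 in the epidermis channel, before correction, was 1279, 934, 1199.5 and 957 on the EED cKO arrays and 95, 319, 214 and 842 on the control arrays, over local backgrounds of 21 to 28. The reference channel of the same spots read 344, 244, 382 and 240 on the EED cKO arrays and 149, 188, 189 and 229 on the control arrays, although every array held the same reference RNA. After normalisation of the channels the reference signal of H2-Ab1 was higher on the EED cKO arrays by 0.60 ± 0.13 (SE) in log2, and the epidermis signal by 2.16 ± 0.44. The ratio therefore differed less than the epidermis signal did. On the second H2-Ab1 probe the reference channel, before correction, read 298.5, 215, 308 and 240 on the EED cKO arrays. It read 163, 184, 155 and 237 there on the control arrays, so the ratio of the second probe is not free of this difference. For the other 8 members the reference channel differed by -0.05 to 0.05.

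H2-Eb1, the beta chain of I-E, read 1.42, 0.92, 1.48 and 1.14 on the EED cKO arrays and -0.51, 0.05, 0.09 and 1.01 on the control arrays. Here 3 of the 4 EED cKO arrays were above every control, and EED cKO replicate 2 fell just below control replicate 4. The log2 fold change was 1.08 ± 0.27 (SE), or 2.11-fold. It was 0.84, under the 2-fold limit, without control replicate 1, and 1.39 without control replicate 4. H2-Aa, the alpha chain of I-A, read 0.72, 0.44, 0.83 and 0.67 against -0.05, 0.35, 0.07 and 0.84, and its groups overlapped. Its log2 fold change was 0.36 ± 0.17 (SE). The H2-Aa probe was dim, well above background on 4 EED cKO arrays and on 2 control arrays. Of the members, 2 of 9 passed the 2-fold call and 1 of 9 had groups that did not overlap, against 1.1% and 17.1% of all targets, and nothing is read from this because the members were chosen on these values. The call of H2-Eb1 was lost with the scanner software's ratio, with the deposited log2 table and with median centring. It was also lost when EED cKO replicate 1 or 3, or control replicate 1 or 2, was left out. Without the 2 control arrays with Y-linked RNA the calls of both H2-Eb1 and H2-Ab1 were lost.

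**Figure D1:**
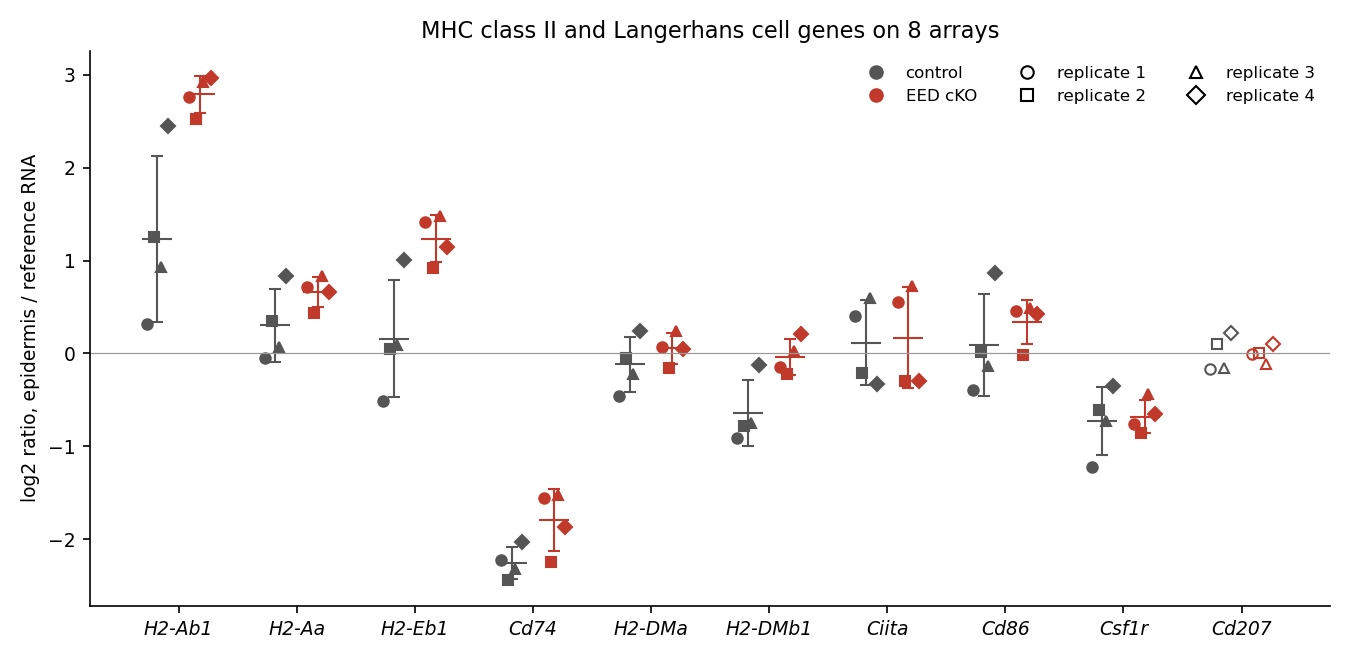
The log2 ratio of epidermis over reference RNA (y axis) is plotted for each member (x axis) on the 4 control arrays (grey) and the 4 EED cKO arrays (red), with marker shape giving the replicate and bars the mean and SD. Open markers are Cd207, which did not pass the filter. Control replicate 4 is the highest control for 8 of the 9 members that passed, and only for H2-Ab1 do the groups not overlap.

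Of the genes that load class II molecules, H2-DMb1 and Cd74 had smaller differences and H2-DMa the smallest. H2-DMb1, the beta chain of H2-DM, read -0.15, -0.22, 0.02 and 0.21 on the EED cKO arrays and -0.91, -0.78, -0.75 and -0.12 on the controls. All EED cKO arrays were above control replicates 1 to 3, and 2 of them were above control replicate 4. Its log2 fold change was 0.61 ± 0.16 (SE). Cd74 read -1.56, -2.24, -1.52 and -1.87 against -2.22, -2.45, -2.32 and -2.04, with EED cKO replicate 2 among the controls. Its log2 fold change was 0.46 ± 0.14 (SE), and its control SD was 0.516 times its EED cKO SD. H2-DMa, the alpha chain of H2-DM, read 0.07, -0.16, 0.25 and 0.05 against -0.45, -0.05, -0.22 and 0.25. Its groups overlapped and the log2 fold change was 0.17 ± 0.14 (SE), with 0.06 without control replicate 1 and 0.30 without control replicate 4.

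Ciita, the transactivator that sets class II transcription, followed the dye rather than the genotype. It read 0.55, -0.30, 0.73 and -0.30 on the EED cKO arrays and 0.41, -0.21, 0.60 and -0.33 on the controls, high wherever the sample carried Cy3. The Cy5 arrays were lower by 0.85 on average, and with the dye in the fit the log2 fold change was 0.05 ± 0.08 (SE). Its raw epidermis signal was 28.5 to 73 over backgrounds of 20 to 22, well above background on 3 of 4 arrays of each genotype. The probe was thus dim, and whether it could show a difference in Ciita RNA was not tested.

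The Langerhans cell receptors and surface proteins showed small differences with overlapping groups. Cd86, a costimulatory ligand of CD28, read 0.45, -0.02, 0.49 and 0.43 on the EED cKO arrays and -0.39, 0.02, -0.14 and 0.87 on the controls, a log2 fold change of 0.25 ± 0.23 (SE). The highest value of the 8 was control replicate 4, and the log2 fold change was 0.52 without it and 0.10 without control replicate 1. Csf1r, the receptor for Csf1 and Il34, read -0.76, -0.86, -0.44 and -0.66 against -1.23, -0.61, -0.73 and -0.35 with its brightest probe, a log2 fold change of 0.05 ± 0.16 (SE). The other Csf1r probes gave -0.01 ± 0.07 and -0.16 ± 0.10. Cd207, the gene of langerin and the defining marker of mature Langerhans cells, was well above background on 0 of 4 EED cKO arrays and on 1 of 4 control arrays, so no fold change is given. Its raw signal was 26 to 47 over backgrounds of 21 to 28. Of the Langerhans cell markers listed beside it, Ptprc, Itgam and Adgre1 were well above background on all 8 arrays and Itgax on 7.

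Over the 9 members the median log2 fold change was 0.36, beside 0.02 over all targets, and all 9 values were above 0, though Csf1r fell to -0.08 with median centring, to -0.08 without EED cKO replicate 3 and to -0.11 without control replicate 1, and Ciita was at 0.000 without EED cKO replicate 3 and at -0.004 without control replicate 1. These are values of the brightest probes, and the other Csf1r probes were below 0. The share of all targets above 0 was not counted and the members were chosen on these values, so nothing is read from the count. RNA of the whole epidermis was measured, so a difference in the number of cells of a type and one in RNA per cell cannot be told apart.

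The members varied together from array to array within each genotype. After genotype and dye means were removed, H2-Ab1 deviated by 0.93 on control replicate 4, by -0.64 on control replicate 1, by -0.55 on EED cKO replicate 2 and by 0.41 on EED cKO replicate 3. H2-Eb1 deviated by 0.77, -0.59, -0.40 and 0.32 on the same arrays. Pearson correlations of these deviations over the 8 arrays were 0.99 between H2-Ab1 and H2-Eb1, 0.98 between H2-Ab1 and Cd86, and 0.68 to 0.99 among all members but Ciita. Ciita correlated with the others at 0.10 to 0.73. These are correlations over 8 arrays that share slide, reference and dye layout, given without a test.

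**Figure D2:**
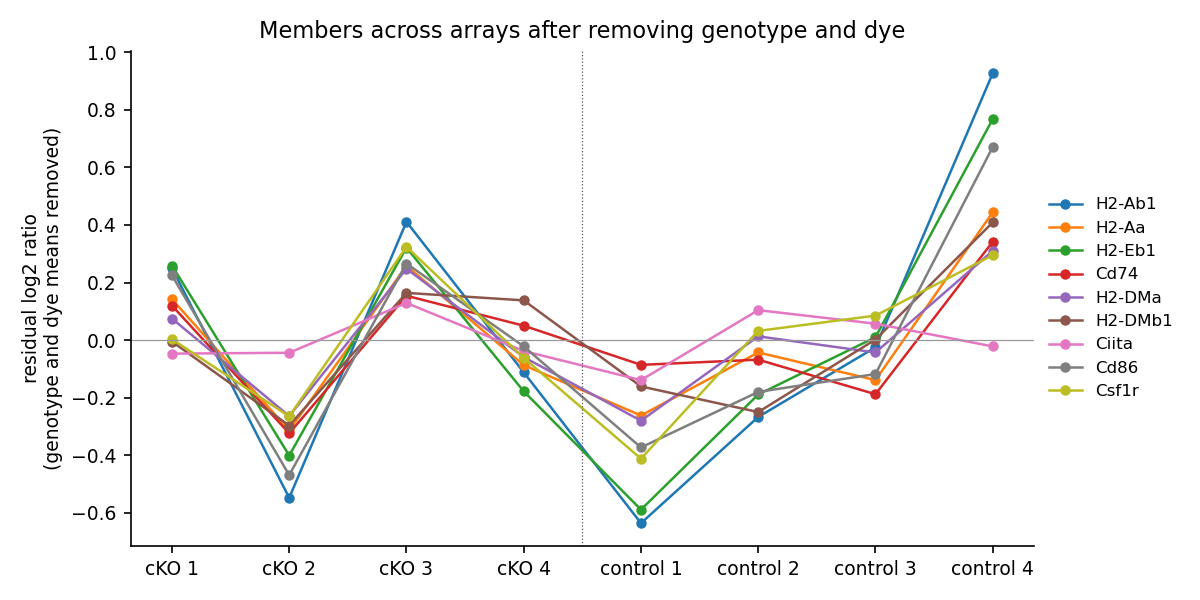
Each line is a member, and the y axis is its log2 ratio on each of the 8 arrays (x axis) after the genotype and dye means were removed. The lines fall together on EED cKO replicate 2 and control replicate 1 and, apart from Ciita, rise together on control replicate 4.

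Control replicate 4 was the highest of the 4 controls for 8 of the 9 members and control replicate 1 the lowest for 7. In the list of Langerhans cell and mononuclear phagocyte markers, none of them members, control replicate 4 was highest for 18 of 20 genes and control replicate 1 lowest for 16. Both held for 16 of the 20, and for 9.45% of all targets. The mean log2 ratio of this list was 0.06 on control replicate 4, -0.78 on control replicate 1, -0.34 and -0.44 on control replicates 2 and 3, and -0.22 to -0.54 on the EED cKO arrays. The markers thus ranged more widely among controls than between the genotypes, and their part in the members' values was not tested.

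Of the 14977 other genes with a symbol, 257 had deviations that correlated with the mean of the members above 0.9. The 5 most alike were Ly86 (0.997), Cd52 (0.995), Fcer1g (0.993), Ncf4 (0.993) and Ptpn18 (0.993). Ly86 encodes MD-1, the partner of the receptor CD180, Cd52 a small surface glycoprotein of leukocytes, Fcer1g the common Fc receptor gamma chain, Ncf4 a subunit of the phagocyte NADPH oxidase and Ptpn18 a tyrosine phosphatase. In the limma test of EED cKO against control none of the 5 passed an adjusted p of 0.05. Ly86 read 0.51, 0.18, 0.84 and 0.77 on the EED cKO arrays and -0.61, 0.47, 0.04 and 1.46 on the controls, with a log2 fold change of 0.24 (adjusted p = 0.649). The log2 fold change was 0.41 for Cd52 (adjusted p = 0.385), 0.10 for Fcer1g (adjusted p = 0.819), 0.14 for Ncf4 (adjusted p = 0.679) and 0.72 for Ptpn18 (adjusted p = 0.0677). Ptpn18 passed with the replicate block (adjusted p = 0.0313), without EED cKO replicate 2 (adjusted p = 0.0296) and without control replicate 4 (adjusted p = 0.00868).

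The log2 ratios of the members were also set against those of the 5 genes on the same array, and against Aif1, Laptm5 and Tyrobp, further phagocyte markers chosen after their values were seen. H2-Ab1 and H2-Eb1 gave non-overlapping genotypes against all 8 of them, with EED cKO higher. The share of all targets that separate in this way was not computed, and 17.1% did not overlap before any subtraction. Nothing is read from this count. The log2 ratio of H2-Ab1 minus that of Ly86 was 2.25, 2.34, 2.08 and 2.19 on the EED cKO arrays and 0.93, 0.79, 0.89 and 0.99 on the controls. The means were 2.22 ± 0.11 and 0.90 ± 0.09 (SD, n = 4), a difference of 1.32 or 2.49-fold. The control SD of H2-Ab1 alone was 0.90, and the narrower spread of the difference is built in because Ly86 was taken as the gene most like the members. Against the 8 genes the difference of H2-Ab1 between genotypes ranged from 0.83 (Ptpn18) to 1.61 (Aif1), and the gap between the lowest EED cKO array and the highest control from 0.06 (Tyrobp) to 1.14 (Aif1). For H2-Eb1 the difference ranged from 0.36 (Ptpn18) to 1.14 (Aif1) and was 0.84 against Ly86. Its smallest gaps were 0.06 against Tyrobp and 0.07 against Ptpn18, so the groups nearly touched there.

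The remaining members overlapped against most of the 8 genes. With EED cKO higher, H2-DMb1 did not overlap against Fcer1g (gap 0.05) and Ncf4 (gap 0.06), nor H2-Aa against Ncf4 (gap 0.01). Cd86 and Csf1r did not overlap against Ptpn18, with EED cKO lower. Cd86 minus Ptpn18 was 1.97 to 2.27 on the EED cKO arrays and 2.51 to 2.69 on the controls. Csf1r minus Ptpn18 was 1.01 to 1.3 and 1.36 to 1.94. Cd74, H2-DMa and Ciita overlapped against all 8. Relative to Ly86, Cd74 was -2.06 to -2.64 on the EED cKO arrays and -1.61 to -3.49 on the controls. Cd86 relative to Ly86 was -0.06 to -0.35 on the EED cKO arrays and 0.21 to -0.58 on the controls, a difference of means of 0.01. Csf1r relative to Ly86 was -1.04 to -1.43 and -0.62 to -1.81, a difference of means of -0.19. Relative to Ly86, H2-DMb1 differed by 0.37 and H2-DMa by -0.07, both with overlap. With the scanner software's ratios in place of the corrected ones, H2-Ab1 minus Ly86 was 2.27 to 2.67 on the EED cKO arrays and 1.04 to 1.44 on the controls. With those ratios H2-Eb1 differed by 1.08 and Cd86 by 0.23, both without overlap (the gap for Cd86 was 0.06), and H2-DMb1 by 0.67 and H2-Aa by 1.34, both with overlap. These differences come from the comparison the members were chosen on and carry no test.

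**Figure D3:**
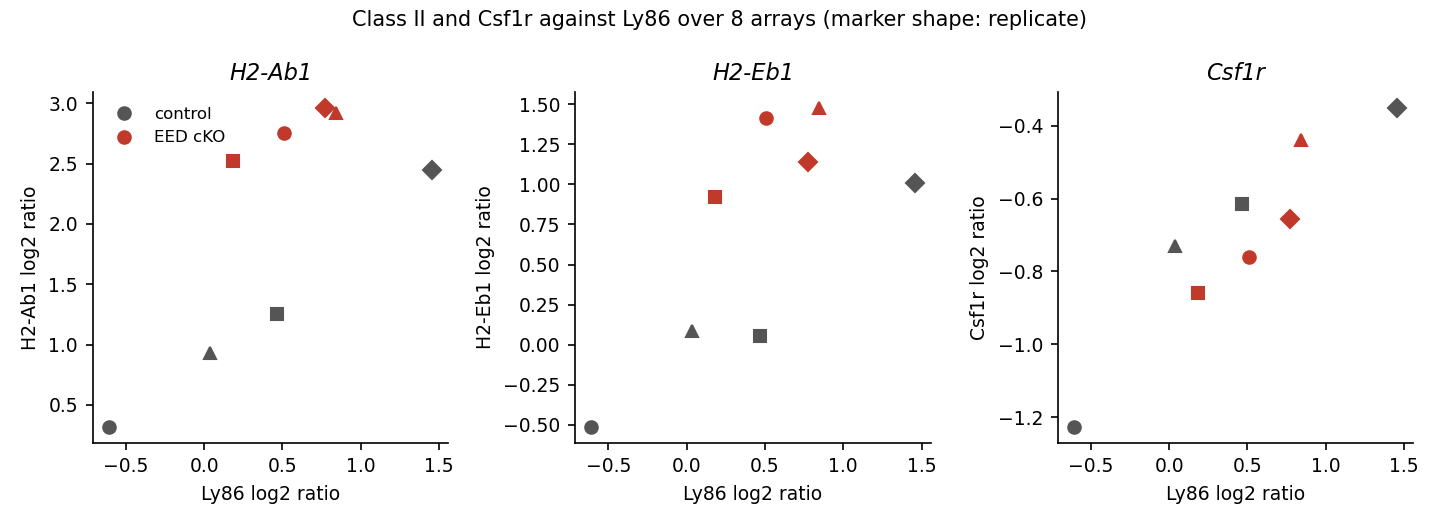
The log2 ratios of H2-Ab1, H2-Eb1 and Csf1r (y axes) are plotted against that of Ly86 (x axes) for the 4 control (grey) and 4 EED cKO (red) arrays, with marker shape giving the replicate. For H2-Ab1 and H2-Eb1 the EED cKO arrays lie above the control arrays of like Ly86 ratio, and for Csf1r the arrays of the 2 genotypes intermix.

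Related genes that are no members were tested in the fit over all targets, where 11.8% were higher and 9.89% lower in EED cKO at an adjusted p under 0.05 at any fold. In 8 lists of antigen presentation and Langerhans cell genes, 78 genes were tested, 10 were higher and 9 lower. Their median log2 fold change was 0.04. The 19 calls were 10 with median centring in place of loess and 9 without the 2 control arrays with Y-linked RNA.

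Among class II genes beside the members, only H2-Ob, the beta chain of the H2-DM inhibitor H2-O, passed the filter, with a log2 fold change of -0.14 (limma adjusted p = 0.242). H2-Ea was not matched to a probe by accession. Of 6 class II transcription factor genes tested, 2 fell and none rose. Nfyc, a subunit of the Y box factor NF-Y, had a log2 fold change of -0.47 (limma adjusted p = 0.00744), and Rfxap, a subunit of the X box factor RFX, of -0.42 (limma adjusted p = 0.0165). The Rfxap call was lost without EED cKO replicate 4 (adjusted p = 0.0526) and without control replicate 2 (adjusted p = 0.0595). It was also lost with median centring (adjusted p = 0.0639) and without the 2 control arrays with Y-linked RNA (adjusted p = 0.123). A second Nfyc probe gave -0.21. Rfx5 was not tested because its probes were well above background on at most 2 of 4 arrays of a genotype.

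Of 8 genes of class II antigen processing, 1 rose. This was Ctsl, the lysosomal protease cathepsin L, by 0.52 in log2 (limma adjusted p = 0.00328). Of 9 genes of dendritic cell maturation, Relb, a subunit of the NF-kappaB transcription factor, fell by 0.42 (limma adjusted p = 0.0102) and the other 8 did not pass. The Relb call was lost without the 2 control arrays with Y-linked RNA (adjusted p = 0.0717).

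Of the 20 Langerhans cell and mononuclear phagocyte markers, 2 fell and none rose. Mgl2, a C-type lectin, fell by 0.52 (limma adjusted p = 0.0237), and Cd24a, a surface glycoprotein that keratinocytes also carry, fell by 0.40 (limma adjusted p = 0.0081). The Mgl2 call was lost under 9 of 22 alternatives, among them those without EED cKO replicate 3 or 4 or control replicate 1, 2 or 4 (adjusted p = 0.0509 to 0.0765). The general markers had log2 fold changes of 0.00 for Ptprc, the leukocyte antigen CD45, -0.02 for Itgax, -0.02 for Itgam and -0.24 for Adgre1, the macrophage antigen F4/80. Their adjusted p-values in limma were 0.985, 0.947, 0.879 and 0.546. Ptprc read -1.94 to -2.33 on the EED cKO arrays and -1.98 to -2.39 on the controls. Of 9 Langerhans cell transcription factors, Ahr, the aryl hydrocarbon receptor, fell by 0.57 (limma adjusted p = 0.0313). This call was lost under 11 of 22 alternatives, among them those without EED cKO replicate 2, 3 or 4 or control replicate 2 or 4 (adjusted p = 0.0538 to 0.09).

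Genes listed as keratinocyte signals to Langerhans cells moved both ways. Il34 fell on all EED cKO arrays, to 1.71, 1.68, 1.56 and 1.37 from 2.23, 2.66, 2.66 and 2.29 on the controls, with no overlap. Its log2 fold change was -0.88 ± 0.13 (SE; limma adjusted p = 0.00194). Csf1, the other ligand of Csf1r, had a log2 fold change of -0.09 (limma adjusted p = 0.474). Ccl27a, a chemokine of keratinocytes for skin-homing T cells, rose by 0.84 (limma adjusted p = 0.0174), and Tgfb2, a ligand of the TGF-beta receptors, rose by 0.62 (limma adjusted p = 0.00287). The Ccl27a call was lost under 6 of 22 alternatives, among them those without EED cKO replicate 3 or 4 or control replicate 2 (adjusted p = 0.0549 to 0.0652), and that of Tgfb2 with median centring (adjusted p = 0.0737). Over this list 2 of 11 genes rose and 1 fell.

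MHC class I and interferon genes had the most calls, with 7 of 14 higher and 2 lower. The 2 lower were Tapbp at -0.45 (limma adjusted p = 0.00854) and Erap1 at -0.26 (limma adjusted p = 0.028). Among those that did not pass were H2-D1 at 0.09 (limma adjusted p = 0.461) and B2m at 0.07 (limma adjusted p = 0.504). Isg15, an interferon-induced ubiquitin-like protein, read -2.01, -0.54, -1.79 and -2.20 on the EED cKO arrays and -2.77, -3.21, -3.15 and -2.91 on the controls, a log2 fold change of 1.38 ± 0.31 (SE; limma adjusted p = 0.0127). The EED cKO arrays were all above the controls, with replicate 2 the highest. A second Isg15 probe gave 0.64. Psmb9, an immunoproteasome subunit, rose by 0.66 (limma adjusted p = 0.0097), and H2-K1, a class I heavy chain, by 0.65 (limma adjusted p = 0.00112). Class I genes resemble each other in sequence, and a second H2-K1 probe gave 0.30. The calls of Isg15 and Psmb9 were lost with median centring (adjusted p = 0.0546 and 0.0634) and without the 2 control arrays with Y-linked RNA (adjusted p = 0.0799 and 0.072).

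**Figure D4:**
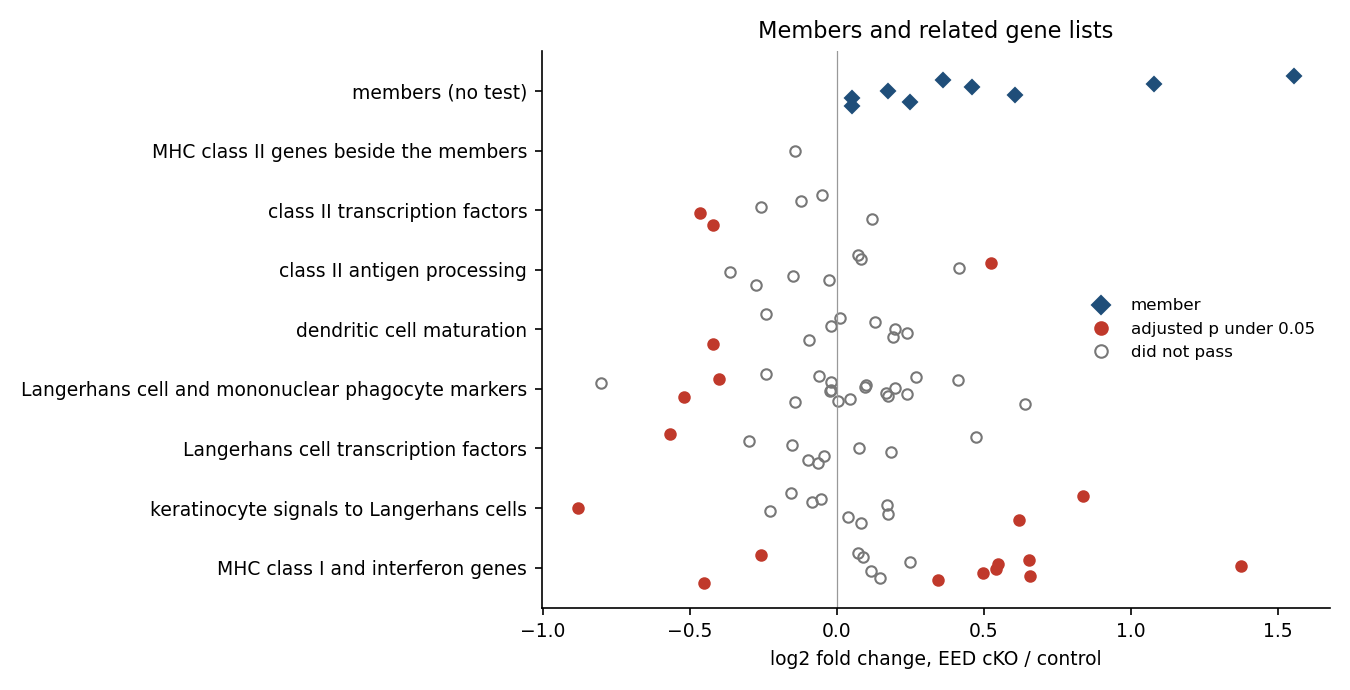
The log2 fold change of EED cKO over control (x axis) is plotted for the 9 members that passed the filter (blue diamonds, not tested) and for the tested genes of 8 related lists (rows), filled red where the limma adjusted p was under 0.05. H2-Ab1 at 1.56 and H2-Eb1 at 1.08 lie beyond all 20 Langerhans cell and mononuclear phagocyte markers, whose 2 calls are both lower. The members were chosen with these values known, so nothing is read from this, and Isg15 at 1.38 also lies beyond H2-Eb1.

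Markers of other cells that carry MHC class II or could enter the preparation were read in the same fit. Of 5 B cell markers none passed, and of 6 T cell markers only Cd3e did, higher by 0.54 (limma adjusted p = 0.00349). None of 5 dermal macrophage markers, 2 mast cell markers, 5 melanocyte markers, 3 erythroid markers or 8 keratinocyte markers passed. The mean log2 ratio of the dermal macrophage list was 0.61 to 0.78 on the EED cKO arrays. It was 0.21, 0.85, 0.90 and 1.22 on control replicates 1 to 4, so replicate 1 was lowest and replicate 4 highest, as for most members. The deviations of its 5 tested genes correlated with the mean of the members at 0.703 (F13a1) to 0.897 (C1qa). The erythroid list had the largest median log2 fold change of the lists, 1.21, with adjusted p-values in limma of 0.116 for Hba-a1, 0.0985 for Hba-a2 and 0.145 for Hbb-bt. Its mean log2 ratio was 1.21, 2.23, 1.99 and 2.21 on the EED cKO arrays and 2.04, 0.53, 1.01 and 1.06 on the controls, where control replicate 1, low for most members, was the highest control. Of 4 endothelial markers 2 rose, Pecam1 by 0.89 (limma adjusted p = 0.00385) and Kdr by 0.62 (limma adjusted p = 0.00215). Of 6 dermal fibroblast markers Lum rose by 0.50 (limma adjusted p = 0.0121), and of 3 neutrophil markers Camp rose by 0.29 (limma adjusted p = 0.0187). The Camp call was lost without EED cKO replicate 2 or control replicate 2 (adjusted p = 0.0545 and 0.0681). It was also lost with median centring (adjusted p = 0.0975) and with the sample channel alone (adjusted p = 0.154). Without the 2 control arrays with Y-linked RNA, Camp (adjusted p = 0.106) and Lum (adjusted p = 0.0643) were lost. The call of Lum was lost with median centring as well (adjusted p = 0.0825), and that of Kdr without the dye term (adjusted p = 0.068). The mean log2 ratio of the endothelial list was 0.50 to 0.65 on the EED cKO arrays and 0.19 to 0.25 on the controls, and that of the B cell list -0.96 to -1.10 and -0.96 to -1.16. The part of these cells in the members' values was not tested.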

How the data were processed

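Arrays were Agilent SurePrint G3 mouse arrays hybridised with 2 dyes. Per the labels, the authors extracted spot signals with Agilent Feature Extraction 12.0.1.1. The deposited scanner files hold spot and local background intensity for each channel without normalisation, and a log10 Cy5 to Cy3 ratio made after the software's own background subtraction and dye normalisation. The deposited log2 table equals the sample over reference ratio of the software's processed signals, with dye-swapped arrays turned, within 0.001 for 100% of values compared and without centring, with column medians of 0.0326 to 0.1392. The software ratio was 0 on 9.09% to 12.8% of spots.

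From the median spot and background intensity, background was corrected by normexp (offset 50), arrays were normalised by loess, ratios were turned to sample over reference, and the brightest probe that passed the filter stood for a target. Of 29796 probes with a RefSeq accession, 28026 matched a symbol, and 23238 targets passed the filter. R 4.3.3 and limma 3.58.1 (lmFit and eBayes on all 8 arrays, with terms for genotype and dye) gave fold changes and Benjamini-Hochberg adjusted p-values over all targets. Calls needed an adjusted p under 0.05 and at least 2-fold. The fit and the correlation of deviations were tested on simulated data. The precision is limited by 4 arrays per genotype. The share of probes well above background in the sample's channel was 51.5% to 65.5% per array, and none was saturated.

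Same-numbered EED cKO and control arrays deviated together, with correlations of 0.49, 0.68, 0.33 and 0.36, and of -0.14, 0.23, -0.13 and 0.05 once the dye, which the number sets, was removed. The members, the lists and the rule for named genes (all members, up to 3 called genes per list with the largest changes, 9 genes whatever their values, and the 5 genes most like the members) were chosen with earlier results of these data known. Alternatives in background, normalisation, filter, probe choice, dye, block, weights and left-out arrays were run, and the sample channel alone and the arrays without Y-linked RNA were added after seeing the data.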

Additional observations from a re-analysis of the deposited data

Results flagged for a closer look

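In 3 of 74 groups of 4 arrays examined, over the members that passed the filter and the named genes, 1 array lay far from the other 3, where chance would give about 1 in 20. Cd86 on EED cKO replicate 2 was -0.021, below 0.43 to 0.49 on the other EED cKO arrays. Adgre1 on EED cKO replicate 3 was -1.46, above -1.86 to -1.81 on the others. A second Adgre1 probe read -0.8, -1.3, -0.56 and -1.01 on the EED cKO arrays, with replicate 3 highest but not set apart. Csf1 on EED cKO replicate 4 was -2.99, a gap of little size since the other EED cKO arrays lay at -2.97 to -2.96. On the other Csf1 probes replicate 4 was the highest EED cKO array. All 3 flagged values were on EED cKO arrays, and none involved control replicates 1 and 4, where most members had their extremes.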

How the results depend on the processing

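The call of 278 targets (91.7% higher in EED cKO) became 701 with the scanner software's log ratio and with the deposited log2 table, 175 with the methods' t-test after Benjamini-Hochberg adjustment and 5029 at any fold, and the split became 73.6% higher with median centring. Without a replicate it was 255 to 317. The members' median of 0.36 stayed above 0 under all 22 alternatives and was 0.26 to 0.54 without a replicate. The 19 list calls became 10 with median centring and 9 without the 2 control arrays with Y-linked RNA, and were 13 to 21 without a replicate. The correlation of Ly86 with the members was 0.982 to 0.999 under 12 alternatives. With the replicate block in place of the dye term 279 targets and 23 list genes were called, the members' median stayed 0.36, no count moved by over 1.5 times, and Ptpn18 passed (adjusted p = 0.0313). The cause of these changes was not tested. H2-Ab1 ranged from 1.30 to 2.16 and H2-Eb1 from 0.84 to 1.39, and Csf1r was below 0 under 3 of them, the lowest being -0.11.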
